A study of Mus musculus with 20 samples.

Results

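The T cell receptor gene segments described here were the 166 genes of the deposited count table that carried a T cell receptor biotype other than a pseudogene and had at least 20 read counts summed over 20 RNA-seq libraries of mouse CD4+ T cells. The table had 47729 rows, and 226 of them were such segments. By gene name, 106 members began with Tra (alpha), 39 with Trb (beta), 4 with Trg (gamma) and 7 with Trd (delta). The other 10 were 8 gamma segments with an older Tcrg name, Gm16602, which RefSeq lists as Trgv1, and B230359F08Rik, which RefSeq lists as Trav13-5. With these placed, the alpha locus held 107 members (61 V, 45 J and 1 constant segment), the beta locus 39 (22 V, 2 D, 13 J and 2 constant segments), the gamma locus 13 (6 V, 3 J and 4 constant segments) and the delta locus 7 (4 V, 2 J and 1 constant segment). Just inside the threshold were Trbv5 with 20 counts and Traj48 with 24, and just outside it were Traj25, Traj47 and Trav13d-1 with 18 each and Tcrg-V5 with 17.

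A T cell receptor chain is encoded by separate V, D (beta and delta chains only), J and constant segments, which are joined in DNA while the cell develops in the thymus. Alpha pairs with beta to form the receptor of CD4+ and CD8+ T cells, and gamma pairs with delta to form the receptor of a separate lineage. The delta locus lies inside the alpha locus, so joining an alpha gene removes delta segments from that chromosome, and constant segments can also be transcribed from alleles that were never joined.

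The study compared mice lacking Dot1l, the methyltransferase of histone H3 lysine 79, with controls. All mice carried a Cre recombinase driven by CD4. Wild-type (WT) mice had the Cre alone, and knockout (KO) mice had the Cre with Dot1l FL/FL alleles. CD4+ cells were enriched from spleen and peripheral lymph nodes. The naive groups were the starting population. For the other groups, cells were stimulated for 4 days with anti-CD3 and anti-CD28 coated on plates, 1 µg/ml of each. Th1 cultures received IL-2 and IL-12 at 10 ng/ml each with anti-IL-4 at 10 µg/ml, and Th2 cultures received IL-2 and IL-4 at 10 ng/ml each with anti-IFN-g at 10 µg/ml. Further WT Th1 and Th2 cultures contained 1 µM of SGC0946, a Dot1l inhibitor, or of its control compound SGC0649. Viable CD4+ cells were sorted after culture. Each of the 10 groups had 2 libraries, and the labels do not say that these came from separate animals, so p-values measure the spread between libraries, which may be technical.

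Assigned reads ranged from 10128143 to 13583185 a library, and 0.105% to 0.308% of them fell on the 166 segments. Expression is given as CPM (counts relative to the assigned reads of each library, scaled by TMM), and as CPM per kb of gene length where genes are compared with each other. Of the 166 members, 121 passed the filter on low counts and were tested with 15938 genes in all, and the other 45 were described without a test. A segment was called changed at an adjusted p under 0.05. Only the 121 could be called, and shares of all genes are of the 15938 tested. The Dot1l row counts the whole gene, including exons outside the floxed part, so it is a weak check of the labels: it was 158 ± 5.64 CPM in WT and 149 ± 13.6 in KO naive cells, 172 ± 6.52 and 134 ± 10.5 in Th1, and 148 ± 11.02 and 99.6 ± 14.03 in Th2 (SD, n = 2). These are bulk samples, in which fewer cells of a type and less RNA per cell cannot be told apart. Reads that matched several places or overlapped more than 1 gene were not counted, so a read aligned across a V and a J segment, or a J and a constant segment, was not counted. RNA from joined and from unjoined alleles cannot be told apart.

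Both pairs of segments below show how alike or how short members can be, and whether reads were resolved between them was not tested. The J segments Trgj1 and Trgj2 belong to different units of the gamma locus, and Trgj2 lies beside the most changed members. The substitutions between them, counted from 1 at the 5′ end with the Trgj1 base first, are A8G, T11C, T38A and T59C, written in capitals, and the other 56 of 60 bases are identical.
Trgj1: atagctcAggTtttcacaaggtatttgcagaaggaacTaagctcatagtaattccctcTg
Trgj2: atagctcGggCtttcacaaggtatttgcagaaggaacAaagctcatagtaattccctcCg
Trgj1 lies at chr13:19210343-19210402 on the forward strand and Trgj2 at chr13:19311245-19311304 on the reverse strand (GRCm38). The beta D segments are the shortest members, at a few CPM.
Trbd1: gggacagggggc
Trbd2: gggactgggggggc
They lie at chr6:41533201-41533212 and chr6:41542163-41542176 on the forward strand. All 4 sequences are from the GENCODE M21 transcripts of that build, in which all 166 members have the coordinates of the deposited table.

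Other members are near copies of each other. Of the 30-base windows of each constant segment, 45.62% of those in Trbc1 and 48.72% of those in Trbc2 also occur in another member, as do 49.72%, 47.23% and 57.84% of those in Tcrg-C1, Tcrg-C2 and Tcrg-C3. Trac, Trdc and Tcrg-C4 share none. Among alpha V segments, 53 of 61 share at least 1 window with another member and 25 share at least 50%. How reads are split between these copies is uncertain, and the levels of Trbc1, Trbc2, Tcrg-C1, Tcrg-C2, Tcrg-C3 and the alpha V segments may be too low.

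In WT naive cells Trbc2, Trac and Trbc1 gave the highest levels of all members, per length and in CPM, and the delta and gamma constant segments stood far below them. Per kb, the beta constant segments stood at 660 ± 41.0 CPM (Trbc1) and 1106 ± 87.6 CPM (Trbc2), and the alpha constant segment Trac at 943 ± 70.5 CPM (SD, n = 2). The delta constant segment Trdc was at 6.14 ± 0.165 CPM per kb. Among gamma constant segments, Tcrg-C1 was at 11.1 ± 0.707, Tcrg-C2 at 10.9 ± 1.25, Tcrg-C4 at 7.55 ± 0.201 and Tcrg-C3 at 0.208 ± 0.108 CPM per kb. Tcrg-C1 and Tcrg-C2 did not differ beyond their spread, and the 4 gamma constant segments together came to 3.18% of Trac per length. Summed over members, the alpha locus gave 1059 ± 56.6 CPM, the beta locus 1867 ± 78.3, the gamma locus 34.2 ± 3.22 and the delta locus 28.2 ± 1.20 in these cells.

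**Figure D1:**
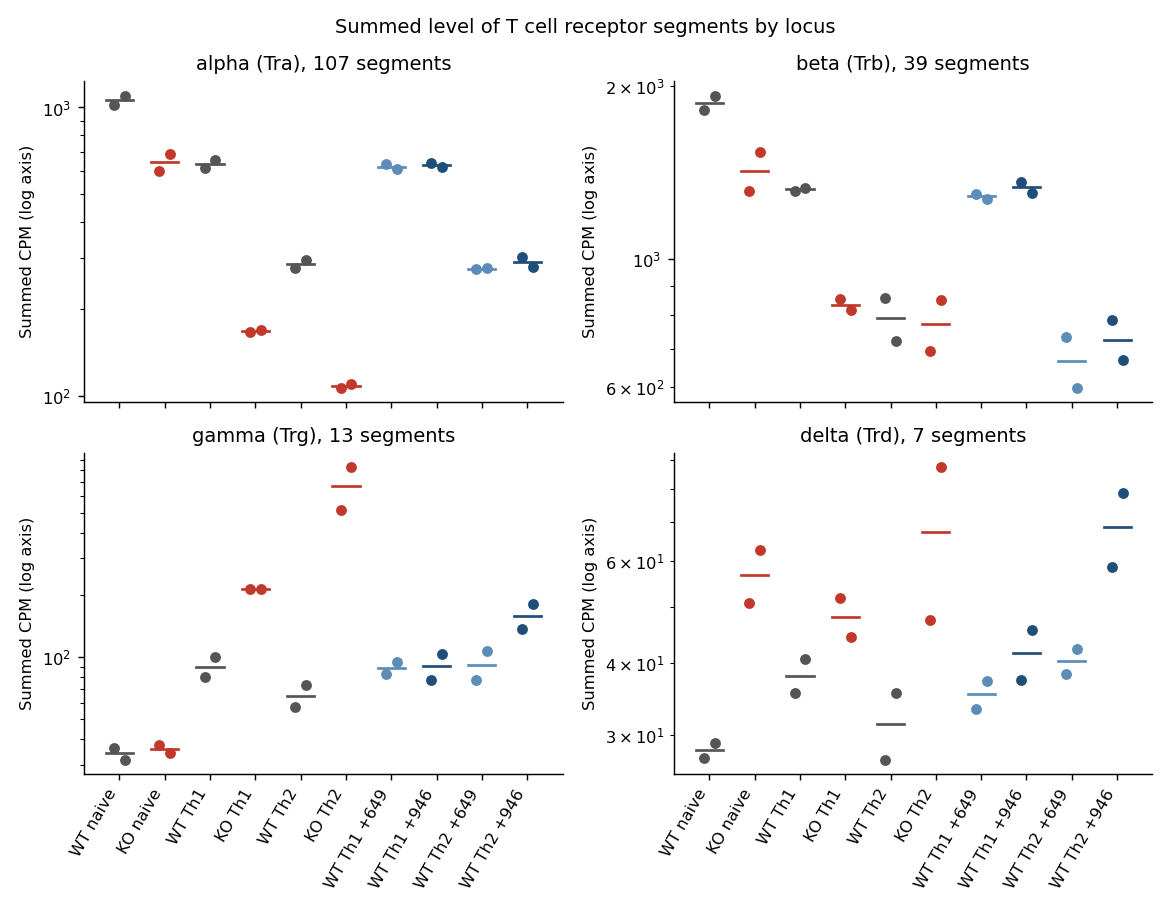
Summed CPM of the members of each locus (log y axis, a different range in each panel) in every library, with 2 points and a line at the mean for each group; the plus sign marks cultures with SGC0649 or SGC0946. Alpha segments are lowest in KO Th1 and KO Th2 cells, gamma segments highest in KO Th2 cells, and KO and WT Th2 libraries overlap for beta segments.

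Culture of WT cells moved the alpha and beta segments down and part of the gamma segments up. In Th1 against naive WT cells, 7 of the 121 tested members rose and 46 fell. Of all genes, 63.8% were called (32.5% higher, 31.3% lower). The 7 that rose were gamma segments, and the 46 that fell were 28 alpha, 17 beta and 1 delta segment. The median log2 difference over all 166 members, fitted with no filter, was -0.61, against 0 for all genes. The count fell with any 1 WT naive or WT Th1 library left out, as did the count of all genes called. In Th2 against naive WT cells, 5 members rose and 101 fell, against 68.8% of all genes called (35.3% higher, 33.5% lower), and the median over all 166 was -1.88. The 101 were 67 alpha, 33 beta and 1 delta segment. Some alpha members, among them Traj13 and Traj19, passed the filter on low counts only because of their levels in naive cells. Any calls of such members as lower than in naive cells add no support, in Th1 or in Th2.

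Trac, the alpha constant segment, was at 835 and 928 CPM in WT naive, 523 and 561 in WT Th1, and 236 and 255 in WT Th2 cells. The 3 groups did not overlap. Its log2 difference from naive was -0.70 ± 0.08 (SE, adjusted p = 9.68e-07) in Th1 and -1.84 ± 0.09 (adjusted p = 2.74e-12) in Th2. Trbc1 fell by 0.43 on the log2 scale in Th1 (adjusted p = 0.00509, lost without WT naive replicate 2) and by 1.14 in Th2 (adjusted p = 2.69e-07), and Trbc2 by 0.54 (adjusted p = 0.000888) and 1.28 (adjusted p = 5.92e-08). All 3 constant segments were therefore higher in WT Th1 than in WT Th2 cells. In that direct comparison 49 members were higher in Th1 and 0 lower, against 48.7% of all genes called (23.6% higher, 25.1% lower), with a median of 0.98 over all 166. At an unadjusted p under 0.05, 61 members differed between the 2 cultures, DESeq2 called 34 and limma voom 50.

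The diversity segment Trbd1, printed above, was among the 5 largest of these differences. It was at 4.80 and 6.05 CPM in WT naive, 4.60 and 3.92 in WT Th1, and 1.38 and 0.985 in WT Th2 cells. The naive and Th1 levels differed little and the Th2 level stood below both. Th1 exceeded Th2 by 1.83 ± 0.27 (log2, SE, adjusted p = 2.41e-05). The beta V segment Trbv14 followed the same order, with 6.94 and 5.80 CPM in Th1 against 1.64 and 1.77 in Th2 (log2 1.90 ± 0.39, adjusted p = 0.000657). Of the alpha V segments, Trav12-3 was at 1.86 and 2.27 CPM in Th1 against 0.605 and 0.591 in Th2 (log2 1.77 ± 0.45, adjusted p = 0.00366).

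The gamma segments went the other way from naive to cultured WT cells. Tcrg-C2, a gamma constant segment, was at 10.8 and 9.20 CPM in naive, 29.6 and 34.3 in Th1, and 19.5 and 28.7 in Th2 cells, a log2 rise of 1.68 ± 0.28 (adjusted p = 0.000123) and 1.26 ± 0.29 (adjusted p = 0.00140). Tcrg-C4 rose by 1.66 ± 0.33 (adjusted p = 0.000549) in Th1 and 1.26 ± 0.34 (adjusted p = 0.00464) in Th2. The V segment Trgv2 was at 2.68 and 1.79 CPM in naive and 6.78 and 7.14 in Th1 cells (log2 1.64 ± 0.38, adjusted p = 0.00129). Its Th2 levels of 3.20 and 6.60 CPM gave a call (log2 1.12, adjusted p = 0.0224) that was lost without WT naive replicate 2 or WT Th2 replicate 2 (0.53) and under limma voom. Summed over its 13 members, the gamma locus stood at 90.0 ± 14.03 CPM in Th1 and 65.1 ± 11.3 CPM in Th2 WT cells (SD, n = 2).

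Loss of Dot1l was accompanied by a lower summed level of alpha segments in all 3 conditions. The log2 differences of the sums were -0.72 in naive, -1.93 in Th1 and -1.41 in Th2 cells. In naive cells 1 of the 121 tested members was higher in KO and 25 lower, against 24.2% of all genes (13.9% higher, 10.3% lower). The 25 were 11 alpha and 14 beta segments. Alpha members such as Traj19 and Traj39 passed the filter on low counts only because of their levels in WT naive cells. Any calls of such members as lower in KO naive cells add no support. With any 1 naive library left out fewer members were called, and fewer of all genes were called as well. In Th1 cells 8 members were higher and 70 lower, against 45.0% of all genes called (22.6% higher, 22.4% lower), the 70 being 43 alpha and 27 beta segments. In Th2 cells 18 were higher and 23 lower, against 47.6% of all genes called (24.6% higher, 23.0% lower). By locus the Th2 calls were 0 higher and 14 lower for alpha, 6 and 9 for beta, 10 and 0 for gamma, and 2 and 0 for delta. The 14 alpha falls were not a larger share of the tested alpha segments than the 23.0% of all genes.

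The knockout effect itself differed between Th1 and Th2 cells for 23 of the 121 tested members, against 40.7% of all genes called. It differed between Th1 and naive cells for 15 members (23.3% of all genes) and between Th2 and naive cells for 16 (31.1%).

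The medians over all members of a locus, fitted with no filter, show the same contrast between loci. For the 107 alpha segments the median log2 difference between KO and WT was -0.84 in naive, -1.74 in Th1 and -1.18 in Th2 cells, against 0 for all genes. For the 39 beta segments it was -0.50 (naive), -0.91 (Th1) and -0.47 (Th2). For the 13 gamma segments it was 0.18, 1.04 and 2.59, and 13 of the 13 were higher by value in KO than in WT in both cultures. Of these, Tcrg-V6 met the count threshold for members only through its counts in KO libraries, so its direction adds no support. In Th1 it had 4 and 0 counts in KO against 0 and 1 in WT. Gamma V, J and constant segments can be joined in the same chain, so the 13 are not separate observations. The 7 delta segments had medians of 0.83, -0.06 and 0.65.

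**Figure D2:**
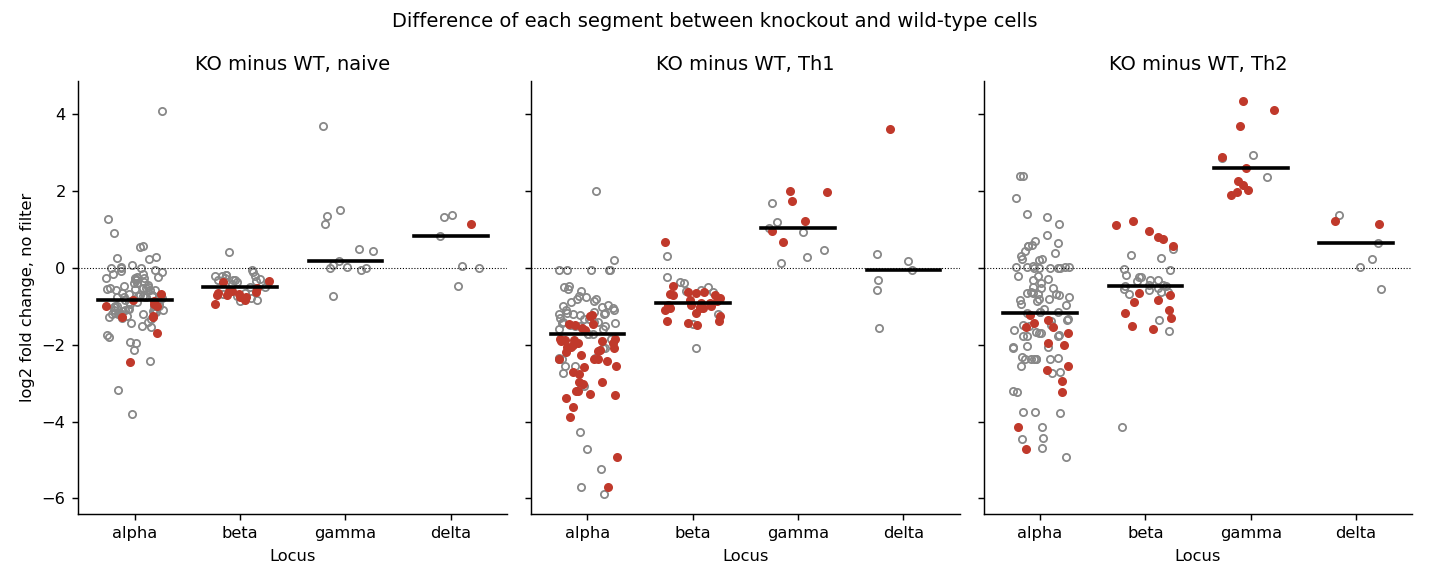
Log2 difference between KO and WT cells for each of the 166 members (y axis, fit with no filter), by locus, in naive, Th1 and Th2 cells. Red filled points were called at an adjusted p under 0.05, open points were not called or not tested, and black lines are medians, which lie below 0 for alpha and beta in all 3 panels and at 1.04 and 2.59 for gamma in Th1 and Th2. Values far from 0 without a call belong to segments with few counts.

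Trac (ENSMUSG00000076928, chr14:54220521-54224206) was at 502 and 573 CPM in KO naive cells against 835 and 928 in WT. In Th1 it was at 138 and 141 against 523 and 561, and in Th2 at 84.7 and 85.7 against 236 and 255. The KO libraries lay below the WT libraries in each condition. The log2 differences were -0.71 ± 0.08 (adjusted p = 1.12e-05), -1.96 ± 0.09 (adjusted p = 2.73e-11) and -1.53 ± 0.09 (adjusted p = 2.19e-10, SE). The fall was larger in Th1 than in naive cells by 1.24 (adjusted p = 1.30e-06 for the difference itself) and larger in Th1 than in Th2 by 0.43 (adjusted p = 0.00847, lost without WT Th2 replicate 1). Summed over the alpha locus, KO cells had 3.80-fold less in Th1 (167 ± 1.25 against 637 ± 29.2 CPM) and 2.66-fold less in Th2 (108 ± 2.03 against 287 ± 13.2 CPM).

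Of the 61 alpha V segments (44 tested), 29 fell in KO Th1, 10 in KO Th2 and 10 in KO naive cells, against 22.4%, 23.0% and 10.3% of all genes, and 0 rose. In Th2 the share of tested alpha V segments that fell was near that of all genes. Trav9-4 was at 2.26 and 2.75 CPM in WT Th1 and 0.225 and 0.235 in KO Th1 cells, a log2 difference of -3.38 ± 0.58 (adjusted p = 0.000151). Trav6-7-dv9 was at 2.42 and 2.04 against 0.3004 and 0.235 CPM (log2 -3.0045 ± 0.45, adjusted p = 3.83e-05). Trav9-1 was at 2.74 and 2.20 against 0.451 and 0.157 CPM (log2 -2.97 ± 0.45, adjusted p = 4.78e-05, and -3.89 without KO Th1 replicate 1). These had the largest falls among V segments above the level set for naming. Trav14-1, the alpha V segment with the highest mean level per length, was at 9.05 and 9.45 CPM in WT naive and 4.12 and 5.04 in KO naive cells (log2 -1.01, adjusted p = 0.00900, lost without WT naive replicate 2 or KO naive replicate 1). In Th1 it was at 2.34 and 2.90 against 0.451 and 0.704 CPM (log2 -2.17 ± 0.37, adjusted p = 0.000137), with no overlap. In Th2 its levels of 1.38 and 0.886 against 0.509 and 0.836 CPM did not pass the test (log2 -0.79, adjusted p = 0.147). Trav4-4-dv10 was lower in both cultures, by 1.99 ± 0.33 (adjusted p = 0.000114) in Th1 and 1.69 ± 0.43 (adjusted p = 0.00362, lost without WT Th2 replicate 2) in Th2.

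The alpha J segments are short and had few counts each. Traj4 was at 1.29 and 1.57 CPM in WT Th1 and 0.150 and 0.313 in KO Th1 cells (log2 -2.58 ± 0.54, adjusted p = 0.000857). Ordered by distance from the constant segment in 3 groups of 15, the summed CPM of the J segments differed between KO and WT Th1 cells by -2.17 (log2) for the nearest, -2.51 for the middle and -1.66 for the farthest group. In Th2 these differences of summed levels were -1.49, -0.93 and -1.56. For the 3 groups of V segments (21, 21 and 19) they were -1.75, -1.66 and -1.56 in Th1 and -0.73, -0.66 and -0.98 in Th2. The segments with more counts weigh more in these sums. All were below 0, in no common order, and how they differ was not tested. Traj18, the J segment of the receptor of invariant NKT cells, had 140 counts in all libraries and was not called in KO naive (log2 -0.76, adjusted p = 0.329), Th1 (-1.51, adjusted p = 0.113) or Th2 cells (-0.94, adjusted p = 0.494). The V segments of that receptor, Trav11 and Trav11d, had 0 and 2 counts. Traj33 and Trav1, the segments of the MAIT cell receptor, had 59 and 77 counts and were not tested.

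**Figure D3:**
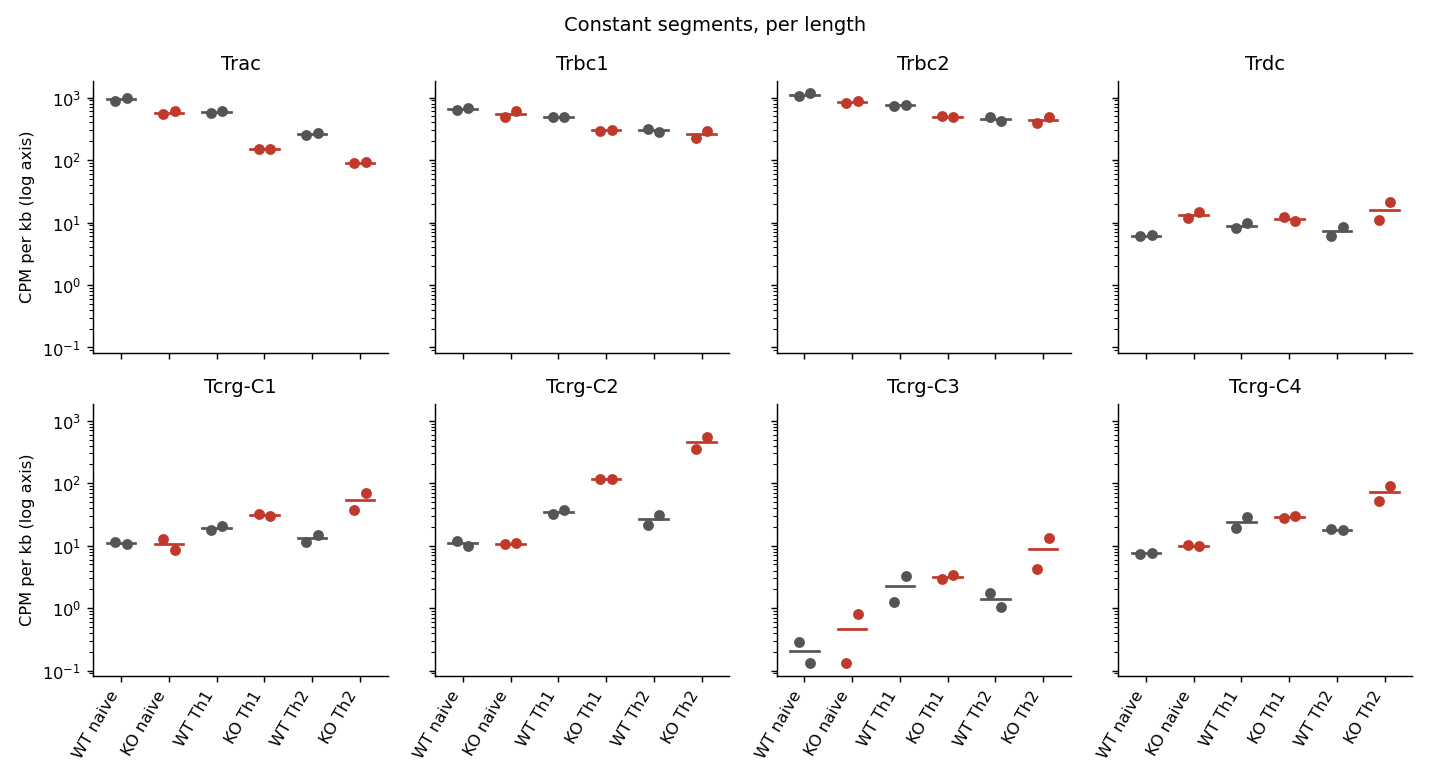
CPM per kb (log y axis, shared by the panels) of the 8 constant segments in each library of the naive, Th1 and Th2 groups, with lines at the group means. Trac falls from 943 in WT naive to 91.1 in KO Th2 cells while Tcrg-C2 rises from 10.9 to 453 CPM per kb.

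The beta constant segments fell less than Trac. In KO Th1 cells Trbc1 was at 220 and 229 CPM against 361 and 372 in WT (log2 -0.71 ± 0.12, adjusted p = 0.000178), and Trbc2 was at 355 and 334 against 516 and 535 (log2 -0.61 ± 0.12, adjusted p = 0.000630). In Th2 cells the groups overlapped for both. Trbc1 was at 167 and 219 CPM in KO and 237 and 211 in WT (log2 -0.22, adjusted p = 0.162, 95% interval -0.48 to 0.04). Trbc2 was at 273 and 342 against 342 and 287 (log2 -0.03, adjusted p = 0.849, 95% interval -0.29 to 0.23). In naive cells Trbc1 was not called (log2 -0.25, adjusted p = 0.155), and the call of Trbc2 (log2 -0.38, adjusted p = 0.0312) was lost with either WT naive library or KO naive replicate 1 left out. The KO effect on Trbc1 and Trbc2 was lower in Th1 than in Th2 by 0.49 (adjusted p = 0.0339) and 0.58 (adjusted p = 0.0135). Each of these was lost without KO Th1 replicate 2, WT Th2 replicate 2 or KO Th2 replicate 2, and that of Trbc1 also without KO Th1 replicate 1, WT Th1 replicate 1 or WT Th1 replicate 2.

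Alpha and beta therefore moved apart. Per length, the ratio of Trac to the sum of Trbc1 and Trbc2 was 0.533 and 0.535 in WT naive, 0.411 and 0.407 in KO naive, 0.456 and 0.473 in WT Th1, 0.184 and 0.191 in KO Th1, 0.312 and 0.391 in WT Th2, and 0.147 and 0.117 in KO Th2 cells. KO lay below WT in each condition with no overlap. The ratio of Trbc1 to Trbc2 stayed between 0.579 and 0.776 over the means of the 10 groups.

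Of the 22 beta V segments (19 tested), 0 rose and 12 fell in KO naive cells, 1 and 12 in Th1, and 6 and 6 in Th2, where 24.6% of all genes rose and 23.0% fell. Trbv13-2, the beta V segment with the highest level per length, was at 81.0 and 75.3 CPM in WT naive and 42.4 and 51.5 in KO naive cells (log2 -0.74 ± 0.14, adjusted p = 0.000861). In Th1 it was at 59.5 and 59.8 against 34.5 and 29.7 CPM (log2 -0.90 ± 0.14, adjusted p = 5.09e-05). In Th2 the groups overlapped, with 34.0 and 25.01 CPM in WT and 20.7 and 27.6 in KO (log2 -0.30, adjusted p = 0.109). Trbv31 was lower in KO in both cultures, at 10.7 and 8.29 against 26.6 and 23.0 CPM in Th1 (log2 -1.38 ± 0.18, adjusted p = 8.33e-06) and 6.79 and 7.52 against 16.9 and 13.4 CPM in Th2 (log2 -1.09 ± 0.20, adjusted p = 0.000188). Trbv29 fell by 1.24 ± 0.22 in Th1 (adjusted p = 0.000204) and 1.58 ± 0.29 in Th2 (adjusted p = 0.000223).

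Other beta V segments were higher in KO than in WT Th2 cells. Trbv1 was at 44.1 and 44.6 CPM in KO Th2 against 25.6 and 19.2 in WT (log2 0.98 ± 0.18, adjusted p = 0.000191). Trbv3 was at 33.9 and 35.1 against 21.3 and 19.6 CPM (log2 0.75 ± 0.16, adjusted p = 0.000849), although in Th1 cells the same segment was lower in KO, at 23.8 and 19.6 against 38.9 and 37.6 CPM (log2 -0.82 ± 0.16, adjusted p = 0.000396). Trbv12-2, chosen after its values were seen, was at 14.9 and 18.4 against 9.08 and 6.10 CPM in Th2 (log2 1.12 ± 0.19, adjusted p = 7.87e-05). The related Trbv12-1, also chosen after its values were seen, was the 1 beta segment called higher in KO Th1 cells (9.69 and 6.34 against 5.49 and 4.55 CPM, log2 0.68, adjusted p = 0.0417). That call did not hold with either WT Th1 library or KO Th1 replicate 1 left out, nor under DESeq2 (adjusted p = 0.0909). In Th2 cells Trbv12-1 was lower in KO (0.934 and 1.15 against 1.90 and 3.25 CPM, log2 -1.29, adjusted p = 0.00921), a call lost without WT Th2 replicate 2 or KO Th2 replicate 1.

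**Figure D4:**
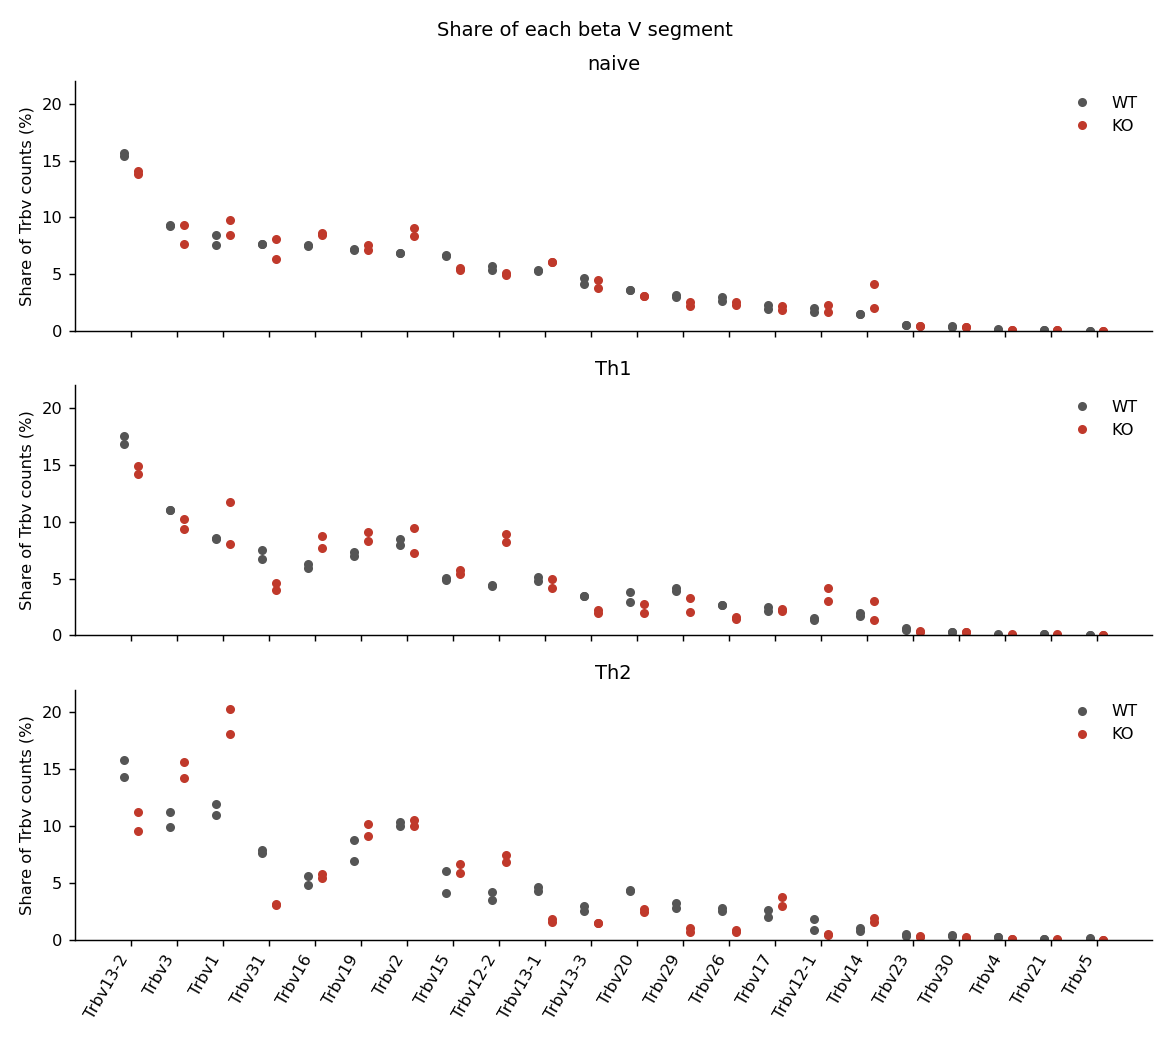
Share of the counts on the 22 beta V segments that fell on each segment (y axis, percent), ordered by the WT naive share, with 2 libraries per group. WT and KO points lie close in naive cells, while in Th2 cells Trbv1 and Trbv3 take larger shares and Trbv13-2, Trbv31 and Trbv29 smaller shares in KO.

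The shares of V counts remove the change of the locus as a whole. Between 2 libraries, the distance used here is the percentage of counts that would have to move to other segments to make the profiles equal. For beta V segments, replicates of a group differed by 1.97% to 8.88% (median 5.54%, 10 pairs). KO and WT libraries differed by 6.21% to 8.04% in naive, 12.67% to 14.09% in Th1 and 19.87% to 22.08% in Th2 cells (4 pairs each). The naive values exceeded the distances of their own replicates (1.97% in WT and 5.49% in KO) but not that of the KO Th1 replicates (8.88%), and the values of both cultures lay above all replicate distances. Libraries with SGC0946 and SGC0649 differed by 4.36% to 6.26% in Th1 and 7.16% to 8.84% in Th2. WT Th1 and naive libraries differed by 6.35% to 8.12%, and WT Th2 and naive libraries by 8.58% to 12.02%. These shares rest on 1643 to 5745 beta V counts a library.

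Of the beta V segments, Trbv1 took 11.9% and 10.99% of the counts in WT Th2 and 20.3% and 18.1% in KO Th2 cells, where it replaced Trbv13-2 as the most used. Trbv3 took 9.90% and 11.2% against 15.6% and 14.3%, and Trbv13-2 took 15.8% and 14.3% against 9.54% and 11.2%. Trbv13-1 went from 4.26% and 4.68% to 1.53% and 1.82%, and Trbv31 from 7.88% and 7.66% to 3.13% and 3.06%. The WT and KO libraries did not overlap for any of these 5. These 5 are examples, and overlap for the other beta V segments is not given. With 2 libraries per group a lack of overlap can arise by chance, so it says little by itself. The effective number of beta V segments in use, 2 to the power of the entropy of the shares, was 15.2 in WT naive, 15.2 in KO naive, 14.3 in WT Th2 and 11.8 in KO Th2 cells. The entropy itself was 3.84 bits in WT Th2 and 3.56 in KO Th2 cells, and 3.87 and 3.58 with pseudogenes included. For alpha V segments replicates already differed by 12.91% to 30.49%. KO and WT Th2 libraries differed by 33.46% to 38.43%, with 206 and 185 alpha V counts in the KO libraries, a depth that limits these shares.

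Of the 13 gamma segments (10 tested), 0 were called in KO naive, 6 rose in KO Th1 and 10 rose in KO Th2 cells, and 0 fell. Tcrg-V3, among the 10, passed the filter on low counts only because of its levels in KO cultures. Tcrg-C2 (ENSMUSG00000076752, chr13:19304649-19307551) was at 10.8 and 9.20 CPM in WT naive and 9.62 and 10.2 in KO naive cells. In Th1 it was at 108 and 108 CPM in KO against 29.6 and 34.3 in WT, and in Th2 at 322 and 506 against 19.5 and 28.7. The KO and WT libraries overlapped in naive cells and were apart in both cultures. The log2 differences were -0.01 ± 0.31 (adjusted p = 0.997), 1.76 ± 0.23 (adjusted p = 4.32e-05) and 4.11 ± 0.25 (adjusted p = 1.45e-08). The effect was larger in Th2 than in Th1 by 2.35 ± 0.33 (adjusted p = 8.81e-05 for the difference itself).

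Trgv2 and Trgj2, the V and J segments that lie with Tcrg-C2 on the reverse strand, moved with it. Trgv2 was at 29.2 and 26.3 CPM in KO Th1 against 6.78 and 7.14 in WT, and at 79.5 and 118 CPM in KO Th2 against 3.20 and 6.60 in WT. Its log2 differences were 1.99 ± 0.28 (adjusted p = 3.31e-05) and 4.35 ± 0.30 (adjusted p = 8.92e-09, and 4.94 without WT Th2 replicate 2). Trgj2, printed above, was at 3.004 and 2.43 CPM against 0.646 and 0.706 in Th1 (log2 1.99 ± 0.39, adjusted p = 0.000467) and at 8.74 and 10.8 against 0.519 and 0.985 in Th2 (log2 3.70 ± 0.37, adjusted p = 2.04e-07). These 3 segments lie in order over a short stretch, with 25.27 kb between Trgv2 and Trgj2 and 3.69 kb between Trgj2 and Tcrg-C2. They were the only members of the gamma locus on the reverse strand, and by value they had the 3 largest differences of the locus in both cultures. The near copy Trgj1, on the forward strand and chosen after its values were seen, was at 0.901 and 1.33 CPM in KO Th1 against 0.565 and 0.392 in WT (log2 1.20, adjusted p = 0.0862). In Th2 it was at 1.19 and 1.67 against 0.259 and 0.492 CPM (log2 1.91 ± 0.59, adjusted p = 0.0130), a call lost without WT Th2 replicate 1 or KO Th2 replicate 2.

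**Figure D5:**
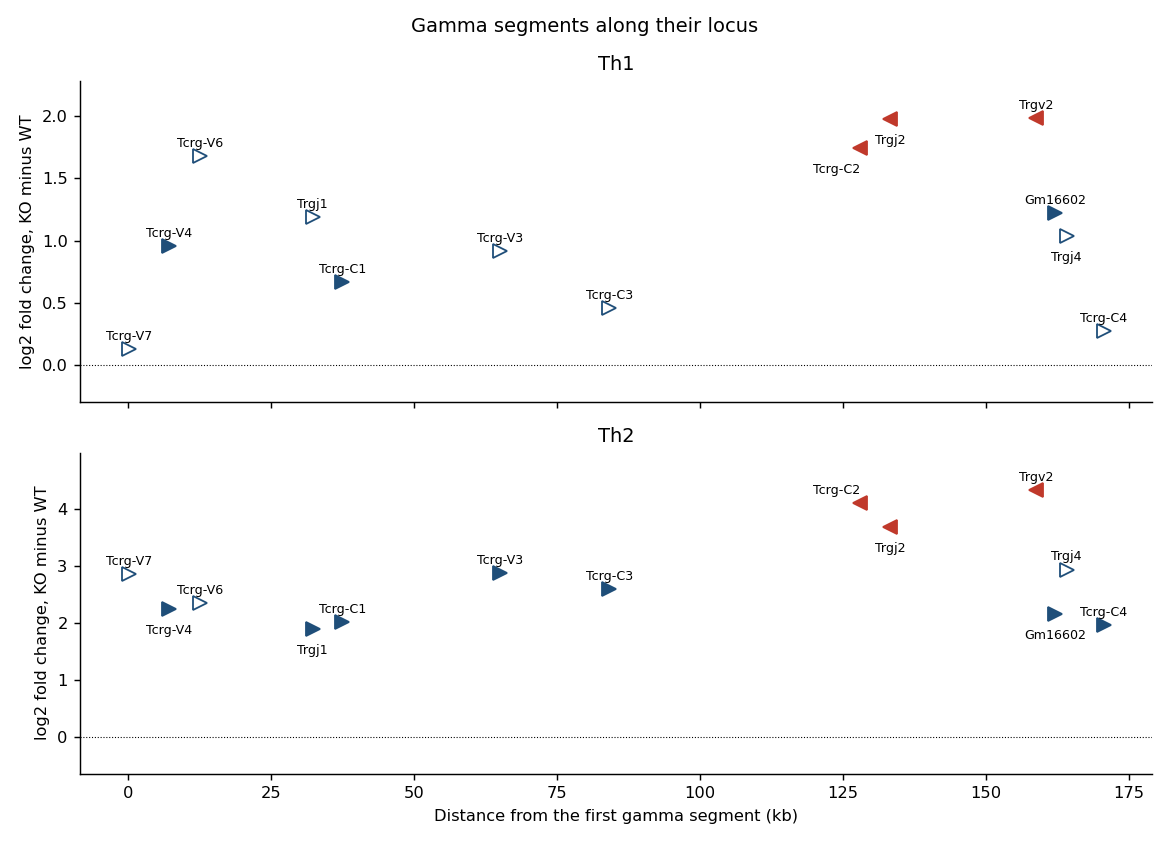
Log2 difference between KO and WT (y axis, fit with no filter) of the 13 gamma segments against their distance in kb from the first (x axis), in Th1 and Th2 cells. Triangles point along the strand, red for the reverse strand and blue for the forward strand, and are filled where called. Trgv2, Trgj2 and Tcrg-C2 reach 1.74 to 1.98 in Th1 and 3.68 to 4.34 in Th2, the highest values of each panel.

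The other gamma constant segments changed less. Tcrg-C1 was at 34.0 and 64.7 CPM in KO Th2 against 10.7 and 13.5 in WT (log2 2.02 ± 0.27, adjusted p = 2.10e-05), and Tcrg-C4 at 50.3 and 90.4 against 17.9 and 17.7 (log2 1.98 ± 0.29, adjusted p = 7.08e-05). Tcrg-C3 was at 2.72 and 8.67 against 1.12 and 0.689 CPM (log2 2.60 ± 0.58, adjusted p = 0.00125), and this value was 1.53 to 3.22 with single libraries left out, lowest without KO Th2 replicate 2. In each of the 3, KO Th2 replicate 2 was the highest library. In Th1 cells Tcrg-C3 and Tcrg-C4 were not called (log2 0.47 and 0.29, adjusted p = 0.530 and 0.444), and the call of Tcrg-C1 (log2 0.68, adjusted p = 0.0465) was lost with any 1 of the 4 libraries left out and under limma voom (adjusted p = 0.0550). As a share of the 4 gamma constant segments per length, Tcrg-C2 made up 36.7% in WT naive, 43.8% in WT Th1, 65.2% in KO Th1, 44.3% in WT Th2 and 77.6% in KO Th2 cells.

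Among the other gamma V segments, Tcrg-V4 was at 10.4 and 16.6 CPM in KO Th2 against 2.59 and 3.05 in WT (log2 2.25 ± 0.29, adjusted p = 4.77e-06). In Th1 it was at 9.09 and 8.68 against 4.12 and 4.94 CPM (log2 0.97, adjusted p = 0.00755), which did not hold without WT Th1 replicate 1. Gm16602 was called in Th2 (1.61 and 3.97 against 0.432 and 0.788 CPM, log2 2.17, adjusted p = 0.00212) but not without KO Th2 replicate 2 (log2 1.38, adjusted p = 0.0636). Its call in Th1 (2.93 and 4.77 against 1.78 and 1.49 CPM, adjusted p = 0.0226) was lost without WT Th1 replicate 1, WT Th1 replicate 2 or KO Th1 replicate 2. Tcrg-V3 (1.78 and 3.13 against 0.605 and 0 CPM) was called in Th2 (log2 2.89, adjusted p = 0.00458) but not without WT Th2 replicate 2 (1.99), and its value was 7.78 without WT Th2 replicate 1. Because Tcrg-V3 was tested only through its levels in KO cultures, its call adds no support. Tcrg-V6 and Tcrg-V7, with 29 and 49 counts in all libraries, were not tested. Summed over its 13 members, the gamma locus reached 515 and 828 CPM in KO Th2 against 57.1 and 73.1 in WT Th2 cells, 10.1-fold more, and 214 and 213 against 80.1 and 99.9 CPM in Th1, 2.39-fold more. Per length, the 4 gamma constant segments together came to 12.6% and 15.1% of Trac in the WT Th1 libraries and 122% and 120% in KO Th1. In Th2 they came to 20.9% and 23.9% in WT and 491% and 796% in KO.

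Between KO and WT, the summed delta segments differed by value less than the gamma segments in both cultures and more in naive cells, a contrast that was not tested. Summed over its 7 members, the delta locus was at 56.6 ± 8.41 CPM in KO and 28.2 ± 1.20 in WT naive cells (SD, n = 2). Trdc was at 44.9 and 56.9 CPM in KO naive against 23.3 and 24.2 in WT cells (log2 1.10 ± 0.27, adjusted p = 0.00960), and the call did not hold with either WT naive library or KO naive replicate 2 left out. In Th2 it was at 41.9 and 80.9 against 23.3 and 32.4 CPM (log2 1.14 ± 0.27, adjusted p = 0.00288), 0.57 to 1.53 with single libraries left out, and not called in a fit of the 4 libraries alone (adjusted p = 0.0590). In Th1 it was at 47.7 and 41.2 against 31.4 and 37.6 CPM and not called (adjusted p = 0.276). Per length, Trdc was 0.653% of Trac in WT and 2.28% in KO naive, 1.54% and 7.70% in Th1, and 2.73% and 17.4% in Th2 cells. Trdv5 was at 2.80 and 3.34 CPM in KO Th2 against 1.21 and 1.38 in WT (log2 1.24, adjusted p = 0.0223), and Trdv4 at 0.751 and 0.469 in KO Th1 against 0.0807 and 0 in WT (adjusted p = 0.0236). The call of Trdv5 was lost without WT Th2 replicate 1, WT Th2 replicate 2 or KO Th2 replicate 2. That of Trdv4 rests on 1 count in WT and was lost without WT Th1 replicate 1, WT Th1 replicate 2 or KO Th1 replicate 1. Trdv4 passed the filter on low counts only because of its levels in KO naive cells. Trdv1 and Trdv2-2 were not called in any KO comparison.

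The inhibitor SGC0946 was compared with its control compound SGC0649 at the same dose and time. In Th1 cells 0 of the 121 tested members were called, against 0.383% of all genes (0.326% higher, 0.0565% lower). At an unadjusted p under 0.05 there were 3, and DESeq2 and limma voom called 0. For Trac, at 549 and 538 CPM with SGC0946 and 543 and 525 with SGC0649, the 95% interval of the log2 difference was -0.15 to 0.20. In Th2 cells 2 members were higher and 0 lower, against 6.51% of all genes called (3.98% higher, 2.53% lower). DESeq2 called 5. Tcrg-V4 was at 5.55 and 8.69 CPM against 2.66 and 3.60 (log2 1.19 ± 0.30, adjusted p = 0.0250), and Trbv17 at 6.70 and 5.07 against 3.23 and 2.75 (log2 0.97 ± 0.24, adjusted p = 0.0201). The count fell to 0 without the SGC0649 Th2 replicate 2 and to 1 with either SGC0946 Th2 library left out, and it was 0 in a fit of the 4 libraries alone. The call of Tcrg-V4 was also lost without the SGC0649 Th2 replicate 1.

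The gamma constant segments were higher by value with SGC0946 in Th2 cells but did not pass the test in the fit of all 20 libraries, which has no replicate block. Tcrg-C2 was at 57.1 and 69.7 CPM with SGC0946 against 29.98 and 40.8 with SGC0649 (log2 0.84 ± 0.24, adjusted p = 0.0530). Trgv2 was at 12.1 and 17.4 against 5.69 and 9.58 CPM (log2 0.95 ± 0.29, adjusted p = 0.0701). Over the 13 gamma segments the median was 0.88, and 12 of the 13 were higher by value, although the 13 are not separate observations. Trac in Th2, at 259 and 239 against 236 and 239 CPM, had a 95% interval of -0.11 to 0.25. The knockout effect and the SGC0946 effect in the same culture differed for 49 members in Th1 (26.5% of all genes called) and 23 in Th2 (27.8%). They differed for Trac by -1.98 ± 0.12 in Th1 (adjusted p = 4.29e-09) and -1.60 ± 0.12 in Th2 (adjusted p = 5.78e-08), and for Tcrg-C2 by 1.58 ± 0.34 (adjusted p = 0.00443) and 3.27 ± 0.34 (adjusted p = 1.12e-05). Both compound groups were WT cells treated for the 4 days of culture, whereas the knockout was in place before it, and the compounds were compared with each other and the KO cells with untreated WT cells.

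The partners of the receptor went in different directions in the 2 cultures. Of 10 listed partners (the CD3 chains, coreceptors and adaptors, 9 of them tested), 0 rose and 3 fell in KO naive cells, 0 and 6 in Th1, and 6 and 1 in Th2, against 24.2%, 45.0% and 47.6% of all genes called in either direction. The 6 that rose in Th2 cells included Cd8a and Cd8b1, the CD8 markers described below. In Th2 cells Cd3g, a CD3 chain, was higher by 1.92 (log2, adjusted p = 5.1e-09) and Cd3e by 1.02 (adjusted p = 1.2e-08). Cd4, the coreceptor by which the cells were sorted, was lower in KO by 1.27 in naive, 2.29 in Th1 and 1.73 in Th2 cells on the log2 scale. The list median was -0.21 in naive, -0.56 in Th1 and 1.02 in Th2 cells, against 0 for all genes.

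Of 10 listed recombination genes (8 tested), 0 rose and 0 fell in KO naive cells, 0 and 2 in Th1, and 2 and 2 in Th2, and Rag2 had 0 counts in every library. Dntt, the polymerase that adds bases at the joints, was lower in KO by 3.68 in Th1 and 3.07 in Th2 cells. Of 15 proximal signalling genes 0 rose and 14 fell in KO Th1 cells, and 3 rose and 8 fell in Th2. Of 16 regulators known to act on these loci, 0 rose and 11 fell in Th1, and 5 rose and 6 fell in Th2. Of all genes, 22.6% rose and 22.4% fell in Th1 and 24.6% and 23.0% in Th2. Among the regulators, Tcf7 was lower by 3.005 in Th1 (adjusted p = 3.6e-05) and 2.74 in Th2 (adjusted p = 8.6e-05), and Myb was higher by 3.61 in Th2 (adjusted p = 5.4e-13).

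The genes beside the loci gave a local comparison. Dad1, 11.27 kb beyond the alpha constant end, was not called in KO Th1 (log2 0.15, adjusted p = 0.240) or Th2 cells (log2 0.07, adjusted p = 0.568), where Trac fell. Sall2, 99.17 kb before the first alpha V segment, was lower in KO by 1.32 in Th1 and 1.07 in Th2. Stard3nl, 4.92 kb after the gamma locus, was higher in KO by 1.04 in Th1 (adjusted p = 2.56e-06) and 0.82 in Th2 (adjusted p = 2.38e-05). It was also higher in KO naive cells (log2 0.41, adjusted p = 0.0294), in which 0 gamma segments were called. Vps41, 311.21 kb before it, differed by -0.33 in Th1 (adjusted p = 0.0141) and 0.05 in Th2 (adjusted p = 0.739). Ephb6, 47.03 kb after the beta locus, differed by -0.35 in Th1 (adjusted p = 0.0687) and 0.65 in Th2 (adjusted p = 0.00122). Moxd2, 3.74 kb before that locus, was not called in Th1 (log2 1.51, adjusted p = 0.0609) or Th2 (log2 1.85, adjusted p = 0.125). Its means were near the floor, at 1.26 CPM in KO and 0.435 in WT Th1, and 0.545 and 0.13 in Th2. At these levels the lack of a call says little.

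Markers of other cells moved with some of these comparisons, and their part in the results was not tested. The 8 markers of gamma delta T cells include the members Trdc and Tcrg-C1. Of the 8, 4 rose and 0 fell in KO naive cells, 4 and 1 in Th1, and 3 and 4 in Th2. Trdc was among those that rose in naive cells, Tcrg-C1 among those in Th1, and both were among the 3 in Th2. With these members, the 8 markers summed to 82.6 to 85.8 CPM in WT and 171 to 176 in KO naive cells. In Th1 they summed to 135 to 142 in WT and 227 to 228 in KO, and in Th2 to 121 to 129 and 125 to 211. Il23r, a marker of one gamma delta subset, was lower in KO Th2 cells by 5.40 (adjusted p = 2.3e-09), and Cd163l1 was higher by 2.005 (adjusted p = 3.5e-06). Both CD8 markers were higher in KO Th2 cells, with a summed level of 126 to 259 CPM against 12.4 to 15.5 in WT. Myeloid and dendritic sums there were 257 to 292 CPM against 22.1 to 58.6 (4 of 10 tested rose, 1 fell). NK sums were 36.1 to 60.5 CPM against 14.8 to 19.2 (1 of 5 rose, 0 fell). Invariant NKT sums were 139 to 199 CPM against 59.2 to 63.9 (2 of 5 tested rose, 1 fell). The sums of B cell and of mast cell and basophil markers overlapped between KO and WT Th2, and thymocyte markers summed lower in KO. Of 10 mast cell and basophil markers 10 rose in KO Th1 cells, from 129 to 170 CPM in WT to 920 to 2149 in KO. In KO naive cells 4 of 7 erythroid markers, 5 of 11 myeloid and dendritic markers (10 tested) and 3 of 8 B cell markers rose. The erythroid sum was 309 to 1281 CPM against 190 to 295 in WT. These marker counts stand against 13.9% of all genes higher and 10.3% lower in KO naive cells. In Th1 the shares were 22.6% and 22.4%, and in Th2 24.6% and 23.0%. None of the gamma delta, CD8, mast cell and basophil, erythroid, myeloid and dendritic, B cell or NK markers was at 0 in every library.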

How the data were processed

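RNA-seq libraries of mouse CD4+ T cells (20, 2 per group) were analysed from the gene-level table of read counts that the authors deposited, in which counts are raw whole numbers with no normalization. Per the file headers, reads were counted on the reverse strand (featureCounts 1.5.3, strand setting 2), without multimapping reads and without reads overlapping more than 1 gene. The submitters' processing notes also name edgeR, limma and the build GRCm38; the aligner is not given in the sources used here. Gene length in bases is taken from the deposited counting table, per the file headers.

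Genes were filtered with filterByExpr (minimum count 10, minimum total 15), scaled by TMM and tested with edgeR 4.0.16 (R 4.3.3) in 1 quasi-likelihood fit of all 20 libraries and 10 groups, with Benjamini-Hochberg adjustment over the 15938 genes tested. Adjusted p-values are from this fit unless another tool is named, and errors of log2 differences are SE. The fit had 10 residual degrees of freedom and a common biological coefficient of variation of 0.100. Tested on simulated counts for KO against WT Th1 cells (15070 genes), it recovered 96% of 100 genes changed 2-fold, with 5.31% false calls. The changed genes were drawn only from those above a mean level that no alpha V or J segment reached. The recovery therefore does not cover segments with few counts. Medians over all members are from the same fit with no filter. Alternatives were DESeq2 1.42.0, limma voom 3.58.1, RLE scaling, scaling from protein-coding genes, no filter, the libraries of a contrast alone, a replicate block, and each library left out; summed levels and V shares were also recomputed with a minimum of 50 counts per member and with pseudogenes included.

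Named segments were the constant segments, the 5 alpha and 5 beta V segments with the highest level per length, gamma and delta V segments, the 5 largest called changes in each direction at an average log2 CPM of at least 0 with no overlap between groups, and segments of invariant NKT and MAIT receptors. Members and gene lists were chosen with earlier results of these data known. Single segments with few counts have low precision. T cell receptor pseudogenes were left out. In the deposited counts, 2 columns of SGC0946 libraries carry replicate number 1 where the labels give 2; they were matched to samples by the rest of the name. A deposited subset of protein-coding genes holds no receptor segments and was not used here.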

Additional observations from a re-analysis of the deposited data

Results flagged for a closer look

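The effect of the knockout differed between conditions in an interaction test in the fit of all 20 libraries. Between Th1 and Th2 cells it differed for 23 of the 121 tested members, against 40.7% of all genes called, and for fewer without KO Th1 replicate 2. Among constant segments the log2 effect in Th1 minus that in Th2 was -0.43 for Trac, -0.49 for Trbc1, -0.58 for Trbc2, -1.34 for Tcrg-C1, -2.35 for Tcrg-C2, -2.13 for Tcrg-C3 and -1.69 for Tcrg-C4. The values of Tcrg-C2 and Tcrg-C4 stayed called without any single library, that of Tcrg-C1 was lost without WT Th2 replicate 1, and that of Tcrg-C3 (adjusted p = 0.0462) was lost without WT Th1 replicate 2, KO Th2 replicate 2 or any 1 of the KO Th1 and WT Th2 libraries.

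Between Th1 and naive cells the knockout effect differed for 15 members, against 23.3% of all genes. The count fell most without replicate 1 of WT naive or of WT Th1, and least without KO naive replicate 1. The difference was -1.24 for Trac and 1.77 for Tcrg-C2. Between Th2 and naive cells it differed for 16 members, against 31.1% of all genes. The difference was -0.81 for Trac, 2.11 for Tcrg-C1, 4.12 for Tcrg-C2 and 1.57 for Tcrg-C4. The value of Tcrg-C4 (adjusted p = 0.0193) was lost with any 1 of the naive and Th2 libraries left out except KO Th2 replicate 1.

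The knockout effect also differed from the effect of SGC0946 in the same culture. In Th1 cells it differed for 49 members, against 26.5% of all genes, and the count was 32 without WT Th1 replicate 1, 32 without the SGC0649 Th1 replicate 2 and 27 without the SGC0946 Th1 replicate 1. The difference was -1.98 for Trac, -0.76 for Trbc1, -0.64 for Trbc2 and 1.58 for Tcrg-C2, and that of Trbc2 was lost without the SGC0649 Th1 replicate 2 or the SGC0946 Th1 replicate 1. In Th2 cells it differed for 23 members, against 27.8% of all genes, and the count was 15 without WT Th2 replicate 2 and 14 without the SGC0946 Th2 replicate 1. The difference was -1.60 for Trac, 1.32 for Tcrg-C1, 3.27 for Tcrg-C2 and 1.30 for Tcrg-C4. Those of Tcrg-C1 and Tcrg-C4 were lost in a fit of the contrast's libraries alone and without WT Th2 replicate 1, KO Th2 replicate 2, the SGC0649 Th2 replicate 2 or the SGC0946 Th2 replicate 1, and that of Tcrg-C4 also without WT Th2 replicate 2.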

How the results depend on the processing

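No called result reversed. Summed levels within their replicate spread of 0 changed sign with single libraries left out: -0.181 to 0.11 for beta in KO Th2, -0.026 to 0.166 for gamma in KO naive and -0.018 to 0.273 for beta with SGC0946 in Th2 (log2). Counts of called members that moved by over 1.5 times had no cause tested. With DESeq2 they were 15 (26 in edgeR) for KO naive, 5 (2) for SGC0946 in Th2, 6 (15) for the KO effect in Th1 minus naive and 30 (49) for the KO effect minus the SGC0946 effect in Th1. With no filter they were 1 for SGC0946 in Th1 and 7 for SGC0946 in Th2. From the contrast's libraries alone they were 0 for SGC0946 in Th2, 25 for the KO effect in Th1 minus naive and 11 for the KO effect minus the SGC0946 effect in Th2. With members placed by name prefixes alone, a choice made after seeing the data, the summed gamma log2 difference between KO and WT was 1.94 in Th1 (1.26 with all 13 members) and 4.22 in Th2 (3.34).

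With the replicate number as a block the count for SGC0946 in Th2 was 6, with Tcrg-C2 (adjusted p = 0.00340), Trgv2 (0.0161) and Tcrg-C4 (0.0375) among those gained, and no other count moved by over 1.5 times. Same-numbered WT cultures deviated together (correlations 0.228 to 0.734 over 15 pairs of groups), and WT and KO of 1 condition at 0.279, 0.125 and 0.321. KO groups with each other gave 0.226, -0.056 and 0.006, and WT naive with the WT cultures gave -0.159 to 0.063.

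With each library left out, counts were 8 to 20 for KO naive, 52 to 60 for KO Th1, 30 to 35 for KO Th2, 0 for SGC0946 in Th1, 0 to 2 for SGC0946 in Th2, 28 to 41 for WT Th1 against naive, 88 to 97 for WT Th2 against naive and 33 to 35 for WT Th1 against Th2. For differences of effects they were 14 to 23 (Th1 minus Th2), 6 to 14 (Th1 minus naive), 13 to 18 (Th2 minus naive), 27 to 42 (KO minus SGC0946, Th1) and 14 to 22 (Th2). A group left with 1 library is assumed to vary like the others, and fewer of all genes were called as well in most of these fits. For named segments, 3079 values under alternatives other than a left-out library kept their call, 66 gained and 88 lost it; with a library left out 2244 kept it, 31 gained and 297 lost it. V share entropies moved by more than the replicate spread in 20 of 40 values with other member sets, of which 13 were alpha.

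Few counts on alpha V and J segments limit single values.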
